A study of Mus musculus with 5 samples.

Results

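The genes described here make cholesterol and fatty acids, and their transcripts were measured in newborn mice, in the thalamic nucleus that relays the retina's signals to visual cortex (the dorsal lateral geniculate nucleus, dLGN). The set was chosen by gene name, with earlier results of these data known. It holds 29 genes of 18193 with a probe set of their own on the array. All 29 were found, on 67 of the 45037 probe sets tested. Each gene is given at its brightest probe set, the one whose mean over the arrays was highest, and its other probe sets are used as a check.

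Cholesterol is built from acetyl-CoA. The mevalonate arm of the pathway makes isoprenoids and ends at squalene, and the sterol arm turns squalene into cholesterol. Fatty acids start from the same acetyl-CoA, and elongases and desaturases then shape their chains. Transcription of both branches is driven by the sterol regulatory element-binding proteins (SREBPs), which Insig proteins hold back in the endoplasmic reticulum when sterols are plentiful. The brain makes its own cholesterol because the blood-brain barrier keeps plasma lipoproteins out, and growing axons and later myelin are known for their large demand.

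Knockout mice lacked both copies of Sema6a (Sema6A KO, Sema6A-/-), a gene for a transmembrane semaphorin of axon guidance, and the controls were heterozygous and so kept a working copy. All mice were at postnatal day 0 and on a C57BL/6 background, and no wild-type group was analysed here. There were 2 knockout and 3 control arrays, and each array held dLGN tissue pooled from pups of 1 genotype and several litters. Values are log2 expression after RMA, a method that subtracts background and brings the distributions of the arrays close to each other.

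The brightest Sema6a probe set read 7.81 and 7.85 in the knockout arrays, against 10.47, 10.65 and 10.39 in the control arrays (log2 difference -2.68, SE 0.12; limma adjusted p = 0.0236). Its level followed the genotype labels in all 5 arrays. Markers of thalamic relay neurons were above the median of all values, 6.41, in at least 1 array for 12 of 12 genes. Of all 18193 genes, 11221 were above it in all 5 arrays, so this count alone does not mark the tissue. Knockout replicate 1 stood apart in 2 ways. Markers of GABAergic and prethalamic cells had a summed signal (log2 of the summed linear values of 17 genes) of 13.38 there and 10.92 in knockout replicate 2, against 10.35 to 11.20 in the controls. The gap between the 3′ and 5′ control probe sets of Gapdh, which widens as RNA is degraded, was 2.34 in that array and 0.96 in knockout replicate 2, against 0.77 to 1.33 in the controls. Without that array, the difference at the brightest probe set moved by more than 0.1 for 9 of the 29 genes, and those values are given with each gene.

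The regulatory sequences that this pathway is known for lie close to the start of its genes. The 250 bases before the start are shown for 3 of the 6 genes that came nearest to a difference between the groups (RefSeq, GRCm38.p6), Insig1, Msmo1 and Nsdhl. Capitals mark matches on either strand to CACNCCA, the core of the sterol regulatory element that SREBPs bind, to CACGTG, an E-box, to CCAAT, bound by NF-Y, and to GGGCGG, bound by Sp1. NF-Y and Sp1 are known partners of SREBPs. The windows are chr5:28071162-28071411 on the plus strand for Insig1, chr8:64733579-64733828 on the minus strand for Msmo1 and chrX:72918271-72918520 on the plus strand for Nsdhl, each written 5′ to 3′ along the gene.
Insig1: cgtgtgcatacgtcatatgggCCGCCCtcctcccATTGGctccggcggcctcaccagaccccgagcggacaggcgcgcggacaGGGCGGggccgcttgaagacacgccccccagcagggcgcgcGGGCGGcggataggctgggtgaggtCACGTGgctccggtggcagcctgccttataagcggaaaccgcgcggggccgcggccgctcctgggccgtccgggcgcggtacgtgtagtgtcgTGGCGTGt
Msmo1: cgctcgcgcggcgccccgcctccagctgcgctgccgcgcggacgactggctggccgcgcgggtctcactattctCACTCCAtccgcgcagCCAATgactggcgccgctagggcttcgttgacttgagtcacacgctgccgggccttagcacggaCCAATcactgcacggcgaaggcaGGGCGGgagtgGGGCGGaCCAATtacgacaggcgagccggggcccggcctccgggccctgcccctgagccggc
Nsdhl: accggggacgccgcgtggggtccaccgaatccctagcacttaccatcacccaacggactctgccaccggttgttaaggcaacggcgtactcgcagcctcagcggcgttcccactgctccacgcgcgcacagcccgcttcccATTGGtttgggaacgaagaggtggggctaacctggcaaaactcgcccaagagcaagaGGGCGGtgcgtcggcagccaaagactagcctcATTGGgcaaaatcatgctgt

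Insig1 held all 4 motifs, Msmo1 held 3 and Nsdhl held CCAAT and GGGCGG. Lss and Ebp also had windows, which are not shown, with CCAAT and GGGCGG but neither CACNCCA nor CACGTG. No marked matches overlapped in the windows shown, and those of Msmo1 lay within the 176 bases before its start. RefSeq promoters were found for 23 of the 29 genes, in 30 windows. A CCAAT match was present in 21 of these windows (70.0%), compared with 33.8% of all 32851 promoter windows of the same length. GGGCGG was present in 21 of 30 (70.0%) against 32.7%, and CACGTG in 5 (16.7%) against 6.02%. CACNCCA was present in 6 of 30 (20.0%) against 15.6%, namely in windows of Hmgcs1, Insig1, Insig2, Msmo1 and Srebf2. These shares describe the letters in the windows, and windows of 1 gene are not independent.

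None of the 29 genes passed an adjusted p of 0.05 in limma, where 0.104% of all genes did at their brightest probe set and 0.0733% of all probe sets. Of the 17 genes of the mevalonate and sterol arms, 16 had a higher mean in the knockout (94.1%, against 51.6% of all genes). The median difference over the 17 was 0.18. Both knockout arrays lay above every control for 7 of them (41.2%, against 15.8% of all genes). The genes were chosen with earlier results of these data known, so shares of the set are not an independent check. At an unadjusted p under 0.05 there were 6 genes, 20.7% of the set, compared with 11.8% of all genes. All 6 were higher in the knockout, where 6.9% of all genes met the same threshold with a higher level and 4.9% with a lower one. They were Fdft1, Lss, Msmo1, Nsdhl, Ebp and Insig1, with differences of 0.38 to 0.46 on the log2 scale (1.30-fold to 1.38-fold). The count was 0 without control replicate 1 and without control replicate 3, where 8.74% and 8.23% of all probe sets met the threshold. With array weights it was 1, against 9.54% of all probe sets. With the probe sets of each gene averaged it was 7, where 11.2% of all averaged genes and remaining probe sets met the threshold. The 7 were Msmo1, Nsdhl, Ebp and Insig1 higher and Stard4, Acaca and Elovl6 lower.

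The means of 22 genes were higher in the knockout and those of 7 were lower, against 51.6% of all genes with a higher mean. The median log2 difference over the 29 genes was 0.13, compared with 0.01 over all 18193 genes. Both knockout arrays lay above every control array for 10 genes (34.5%, against 15.8% of all genes) and below every control array for 3 (10.3%, against 13.9%), so the groups were apart for 44.8% of the set, against 29.7% of all genes, and overlapped for 16 genes. The smallest p that an exact permutation of 2 against 3 arrays allows for the absolute difference is 0.1, so such a separation does not reach a test threshold by itself. The 95% limma interval of the difference lay within 2-fold either way for 27 genes and within 1.5-fold for 17. The exceptions to the 2-fold bound were Fdps and Srebf1, whose levels varied most between arrays of the same genotype.

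**Figure D1:**
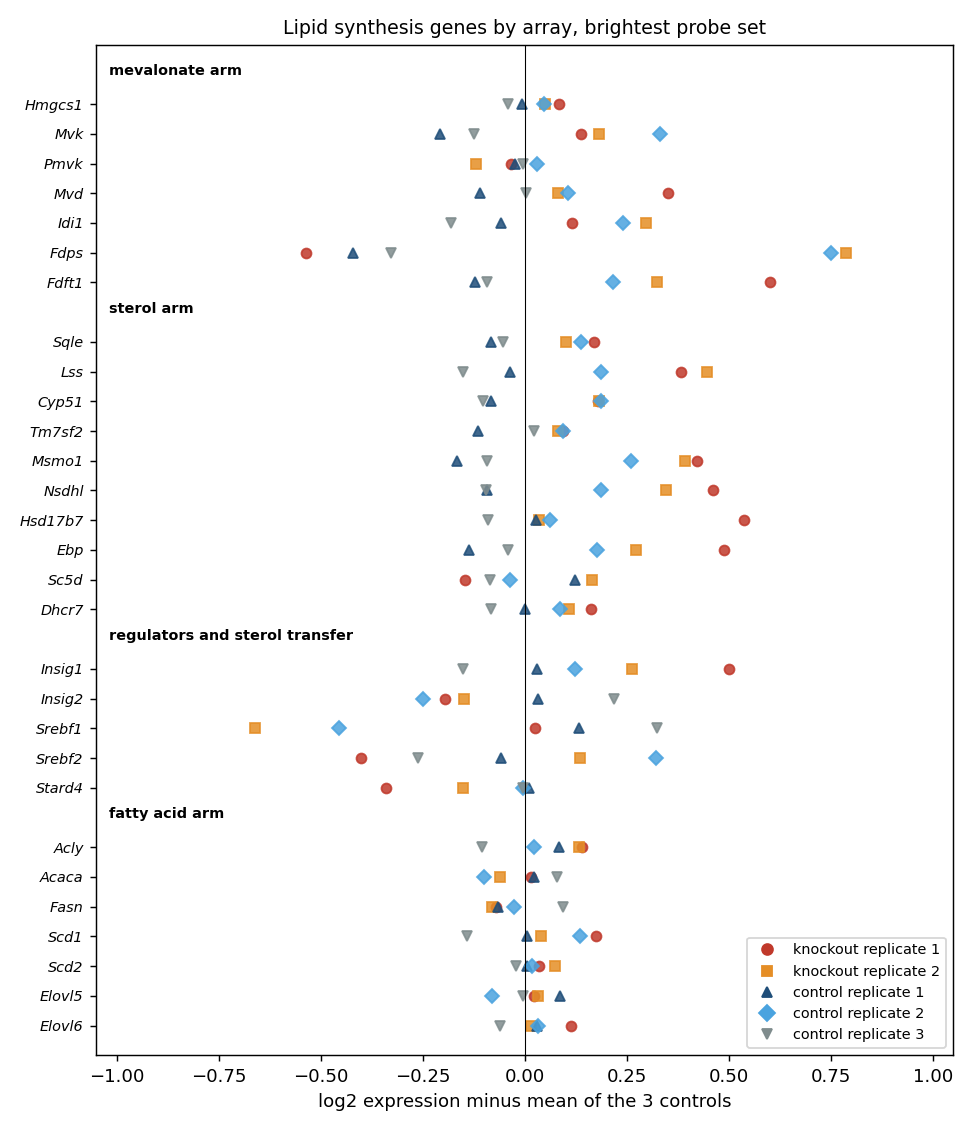
Log2 expression of each of the 29 genes at its brightest probe set in each of the 5 arrays (x axis), as the difference from the mean of the 3 control arrays, with genes down the page by arm of the pathway. In the sterol arm most knockout points lie right of 0, and control replicate 2 (light blue diamonds) lies right of the other controls for 16 of the 17 genes of the mevalonate and sterol arms.

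The mevalonate arm had 7 genes, 6 with a higher mean in the knockout and a median log2 difference of 0.16. Hmgcs1, which makes HMG-CoA for the arm's rate-limiting reduction, read 13.97 and 13.94 in the knockout arrays and 13.88, 13.94 and 13.85 in the control arrays. Its values varied little over all 5 arrays, and the difference of 0.07 (SE 0.10; limma adjusted p = 0.843) was no larger than its error. These levels are close to the highest value in the file, 14.46. The dimmer probe sets of the gene gave differences of 0.09 to 0.32.

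Mvd, which decarboxylates a mevalonate intermediate to isopentenyl diphosphate, read 10.11 and 9.84 in the knockout, against 9.65, 9.86 and 9.76 in the control, so that the groups overlapped. Its difference of 0.22 was 0.08 without knockout replicate 1. Mvk and Pmvk, the 2 kinases before it, differed by 0.16 and -0.08, and Idi1, the isomerase after it, by 0.21. The dimmer probe sets gave 0.21 for Mvd, 0.01 for Mvk and 0.33 for Idi1. Both knockout arrays lay above every control at that of Idi1 (limma unadjusted p = 0.0578), and the groups overlapped at the others. Fdft1 encodes squalene synthase, which commits the chain to sterols, and was the gene of this arm nearest to a difference. It read 12.35 and 12.08 in the knockout arrays, against 11.63, 11.97 and 11.66 in the control arrays, with both knockout arrays above every control. The log2 difference was 0.46 with an SE of 0.16 (limma unadjusted p = 0.0319, adjusted p = 0.396), and it was 0.32 without knockout replicate 1. A second Fdft1 probe set of similar brightness differed by 0.16 (SE 0.18), with 11.51 and 11.71 in the knockout and 11.20, 11.71 and 11.44 in the control. The brightest one carries the suffix _x_at, which the maker gives to probe sets that may also bind other transcripts.

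Fdps, which makes farnesyl diphosphate, varied most between arrays of the same genotype. It read 10.08 and 11.40 in the knockout arrays, against 10.19, 11.37 and 10.29 in the control arrays. Knockout replicate 2 and control replicate 2 were high, and the other 3 arrays lay more than 1 log2 unit below them, with both genotypes at each level. The difference between the genotypes was 0.13 with an SE of 0.52 (limma adjusted p = 0.950), and it was 0.79 without knockout replicate 1 and -0.54 without knockout replicate 2. The 3′ minus 5′ difference of the Gapdh control probe sets was 2.34 and 0.96 in the knockout arrays and 1.24, 0.77 and 1.33 in the control arrays. The 2 arrays with the lowest such values were the 2 with high Fdps. The part of RNA quality in the Fdps values was not tested. The replicate 2 arrays of both genotypes were also the highest for Srebf2, a middle Scd2 probe set and the dimmer Mvk probe set. That Mvk probe set read 8.0 and 8.8 in the knockout, against 8.1, 8.9 and 8.2 in the control.

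The sterol arm had 10 genes, and the mean of each of the 10 was higher in the knockout, by 0.01 to 0.41 with a median of 0.23. Lss encodes lanosterol synthase, which closes the sterol rings. It read 10.12 and 10.19 in the knockout arrays, against 9.71, 9.93 and 9.59 in the control arrays, a difference of 0.41 (SE 0.14; limma unadjusted p = 0.0265, adjusted p = 0.377). The knockout arrays lay above all controls here, but 2 dimmer Lss probe sets gave -0.13 and -0.16 with overlapping groups. The mean of the 3 gave 0.04 (limma unadjusted p = 0.745).

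Msmo1 encodes the oxidase that starts the removal of methyl groups from the sterol ring. It read 10.62 and 10.59 in the knockout, against 10.03, 10.46 and 10.10 in the control, with a difference of 0.41 (SE 0.16; limma unadjusted p = 0.0468, adjusted p = 0.441). The dimmer Msmo1 probe set gave 6.89 and 6.82 in the knockout and 6.41, 6.42 and 5.93 in the control, a difference of 0.60 (limma adjusted p = 0.345). Both probe sets had the knockout arrays above every control array, but the control mean of the dimmer one, 6.26, lay below the median of all values.

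Nsdhl, the dehydrogenase that works with Msmo1 in demethylation, read 10.49 and 10.37 in the knockout, against 9.93, 10.21 and 9.93 in the control (difference 0.40, SE 0.14; limma unadjusted p = 0.0285, adjusted p = 0.384). Ebp, the sterol isomerase, read 9.03 and 8.81 in the knockout, against 8.40, 8.72 and 8.50 in the control (difference 0.38, SE 0.15; limma unadjusted p = 0.0429, adjusted p = 0.431). In each case the knockout arrays lay above the controls, with control replicate 2 the nearest control. Without knockout replicate 1 the difference of Ebp was 0.27. Nsdhl and Ebp each had 1 probe set, so no second reading was at hand.

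**Figure D2:**
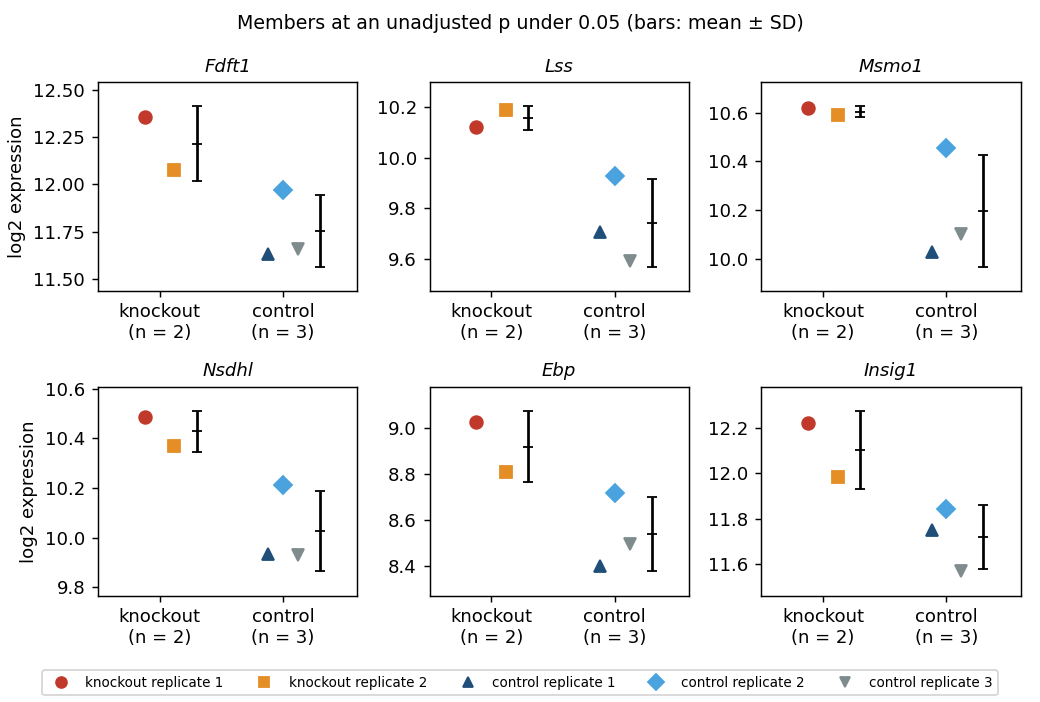
Log2 expression (y axis) of the 6 genes at an unadjusted limma p under 0.05, one panel a gene, in 2 knockout and 3 control arrays, with bars for the mean ± SD of each group. Knockout arrays lie above all control arrays in each panel, by 0.38 to 0.46 between the means, and control replicate 2 is the highest control in each.

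The other sterol genes were closer to the controls at their brightest probe sets. Hsd17b7, a reductase of the demethylation step, read 11.36 and 10.86 at its brightest probe set in the knockout, against 10.85, 10.89 and 10.74 in the control. The groups overlapped, and the difference of 0.29 was 0.04 without knockout replicate 1. A dimmer Hsd17b7 probe set read 9.10 and 9.10 in the knockout, against 8.39, 8.56 and 7.67 in the control, a difference of 0.89 (SE 0.28; limma unadjusted p = 0.0214, adjusted p = 0.358). The 2 dimmest ones gave -0.09 and 0.23. Dhcr7, which makes cholesterol in the last step of its branch, read 12.33 and 12.27 in the knockout and 12.16, 12.25 and 12.08 in the control, a difference of 0.14 (SE 0.11; limma adjusted p = 0.692). Sqle, the squalene epoxidase and a second control point of the pathway, differed by 0.13 and Tm7sf2, a sterol reductase, by 0.09. Cyp51, which demethylates lanosterol, differed by 0.18 at its brightest probe set, where the groups overlapped. Its 2 dimmer probe sets gave 0.43 and 0.32 (limma unadjusted p = 0.083 and 0.116), with both knockout arrays above every control. Sc5d, a desaturase late in the pathway, differed by 0.01, and by 0.16 without knockout replicate 1. Another Sc5d probe set of nearly the same level read 9.54 and 8.69 in the knockout, against 8.69, 8.65 and 8.54 in the control. Knockout replicate 1 alone was high there, and the difference of 0.49 was 0.06 without it.

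The controls themselves differed in this pathway. Control replicate 2 was the highest of the 3 controls for 16 of the 17 genes of the mevalonate and sterol arms, where it was the highest for 27.7% of all genes. Relative to the mean of the controls, the median of those 17 genes was 0.17 in knockout replicate 1 and 0.18 in knockout replicate 2. In the controls it was -0.08, 0.18 and -0.09, so control replicate 2 reached the level of both knockout arrays. Over the 29 genes, the differences between knockout replicate 2 and control replicate 2 had an SD of 0.12, as had those between control replicates 1 and 3. Those between the 2 knockout arrays had an SD of 0.34, and 0.23 without Fdps. The controls thus spread over a wider range than the median difference between the genotypes, 0.18. This pattern was noticed after the values were seen, and its cause was not tested.

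**Figure D3:**
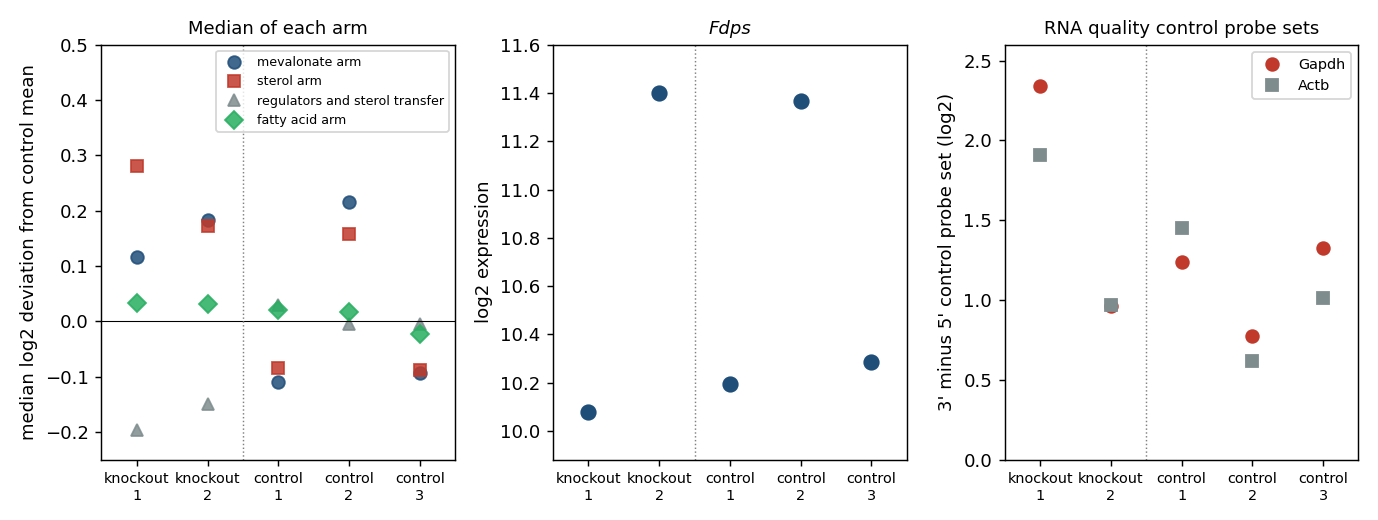
By array (x axis): the median log2 deviation from the control mean of the genes of each arm (left), the log2 expression of Fdps (middle), and the 3′ minus 5′ difference of the Gapdh and Actb control probe sets (right). Control replicate 2 lies with the knockout arrays in the mevalonate and sterol arms, and Fdps is near 11.4 in knockout replicate 2 and control replicate 2 only.

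The regulators of the pathway, taken with the sterol carrier gene Stard4, went both ways: 1 of 5 had a higher mean in the knockout and 4 a lower one, with a median of -0.17. Insig1, which retains SREBPs and is itself a well-known SREBP target, read 12.22 and 11.98 in the knockout, against 11.75, 11.84 and 11.57 in the control. The knockout arrays lay above all controls, with a difference of 0.38 (SE 0.14; limma unadjusted p = 0.0387, adjusted p = 0.418) that was 0.26 without knockout replicate 1. Its relative Insig2 read 9.09 and 9.14 in the knockout and 9.32, 9.03 and 9.50 in the control, a difference of -0.17 (SE 0.16; limma adjusted p = 0.735) with overlapping groups. A dimmer Insig2 probe set gave 0.03.

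Srebf2, whose product chiefly drives cholesterol genes, read 11.34 and 11.88 in the knockout, against 11.69, 12.07 and 11.48 in the control. The groups overlapped, and the difference was -0.13 with a 95% interval of -0.74 to 0.47 (limma adjusted p = 0.868), and it was 0.13 without knockout replicate 1. Srebf1, whose product chiefly drives fatty acid genes, read 9.11 and 8.42 in the knockout and 9.21, 8.63 and 9.41 in the control. Its replicate 2 arrays of both genotypes were the lowest, and the difference was -0.32 with an interval of -1.09 to 0.45 (limma adjusted p = 0.740), and it was -0.66 without knockout replicate 1.

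Stard4, a carrier of cholesterol between membranes and a known SREBP-2 target, was lower in both knockout arrays than in every control at 3 of its 3 probe sets. At the brightest one it read 9.70 and 9.89 in the knockout, against 10.05, 10.04 and 10.04 in the control, a difference of -0.25 (SE 0.11; limma unadjusted p = 0.0735, adjusted p = 0.499). A dimmer probe set read 7.16 and 7.08 in the knockout and 7.58, 7.72 and 7.45 in the control, a difference of -0.46 (SE 0.13; limma unadjusted p = 0.0119, adjusted p = 0.305). The direction of Stard4 was opposite to that of Insig1 and, at their brightest probe sets, of the enzymes above except Pmvk. Pmvk (-0.08) also lay below every control in both knockout arrays.

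Genes of the fatty acid arm differed little at their brightest probe sets: 5 of 7 means were higher in the knockout and 2 lower, with differences from -0.08 to 0.14 and a median of 0.05. The 95% interval of each of the 7 lay within 1.5-fold either way. Acly, which supplies cytosolic acetyl-CoA to both branches, read 13.11 and 13.10 in the knockout, against 13.05, 12.99 and 12.87 in the control (difference 0.14, SE 0.11; limma adjusted p = 0.693). Fasn, the fatty acid synthase, differed by -0.08 and Acaca, the carboxylase that commits acetyl-CoA to fatty acids, by -0.02. Elovl6, which elongates saturated fatty acids, read 11.18 and 11.08 in the knockout and 11.09, 11.10 and 11.00 in the control, a difference of 0.06. Elovl5, an elongase of polyunsaturated fatty acids, gave 0.03.

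The stearoyl-CoA desaturases Scd1 and Scd2 place the first double bond in saturated chains, and Scd2 is the form known from brain. Scd1 read 12.21 and 12.07 in the knockout, against 12.04, 12.17 and 11.89 in the control, a difference of 0.11 (SE 0.13; limma adjusted p = 0.796). Scd2 read 12.94 and 12.98 at its brightest probe set in the knockout, against 12.91, 12.92 and 12.88 in the control, a difference of 0.05 (SE 0.10; limma adjusted p = 0.872).

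The dimmest of the 3 Scd2 probe sets gave another picture. It read 9.42 and 9.44 in the knockout arrays, against 10.17, 10.16 and 10.05 in the control arrays. The groups were far apart compared with their spread, with a difference of -0.70 (SE 0.11; 1.62-fold lower in the knockout). Its limma unadjusted p of 0.000828 was the lowest of the 67 probe sets of the 29 genes, and the adjusted p was 0.130. The third Scd2 probe set read 11.68 and 12.41 in the knockout and 12.13, 12.64 and 11.52 in the control, with no separation. The 3 readings of Scd2 thus disagreed, and which transcript each one measures was not tested.

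Probe sets of 1 gene disagreed elsewhere too. Of 38 probe sets other than the brightest, 10 had the opposite sign, and 6 of the 20 genes with more than 1 probe set had readings of both signs. At an unadjusted p under 0.05 there were 6 of the 38, those of Hsd17b7 and Msmo1 higher in the knockout and those of Stard4, Scd2, Acaca and Elovl6 lower. Over all 67 probe sets, 12 met that threshold (11.1% of all probe sets did) and 0 passed the adjusted one. The dim Acaca probe set read 4.77 and 5.49 in the knockout, against 6.00, 6.33 and 6.45 in the control (difference -1.13, SE 0.25; limma adjusted p = 0.241). The dim Elovl6 probe set read 3.97 and 3.68 in the knockout, against 4.81, 4.31 and 4.69 in the control (difference -0.78, SE 0.19; limma adjusted p = 0.265). The control means of both lay below the median of all values, as did that of the dimmer Msmo1 probe set. With its probe sets averaged, Acaca gave -0.58 (limma unadjusted p = 0.00809). The opposite signs not yet given were those of Acly (-0.10 and -0.06) and of a middle Elovl6 probe set (-0.24).

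**Figure D4:**
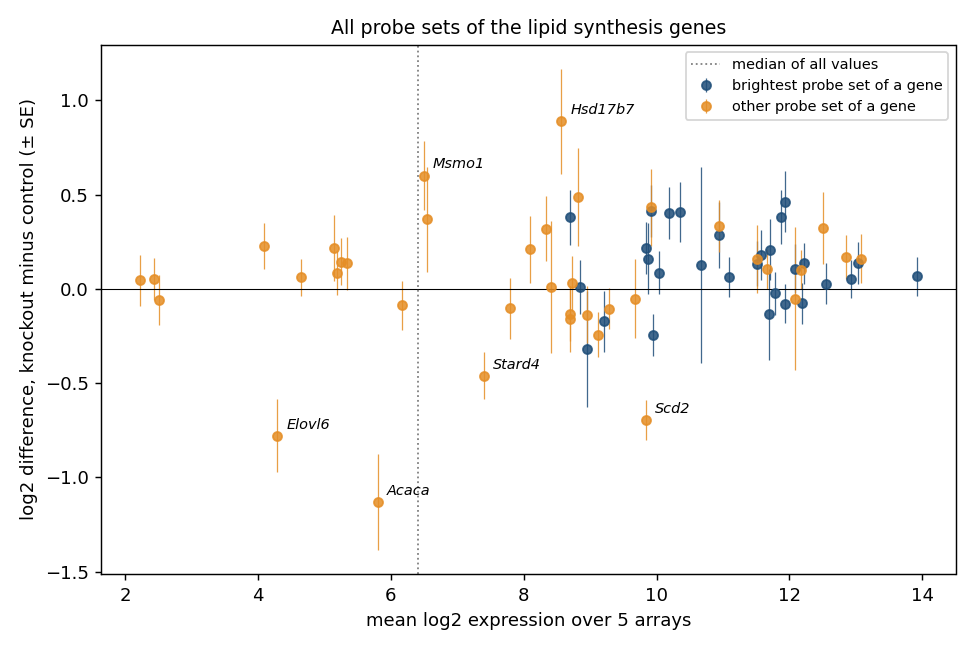
Log2 difference, knockout minus control (y axis, ± SE of limma), against the mean log2 level over the 5 arrays (x axis) for all 67 probe sets of the 29 genes, with the brightest of each gene in blue, the others in orange, and the orange ones at an unadjusted p under 0.05 named. The brightest probe sets lie between -0.32 and 0.46, while dimmer ones of Acaca, Elovl6 and Scd2 lie at -1.13, -0.78 and -0.70 and one of Hsd17b7 at 0.89.

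Other genes of the same pathways were taken from lists made beside the 29. Of 15 further genes of sterol synthesis and SREBP control 8 were measured, 4 with a higher and 4 with a lower mean in the knockout, and 0 had an unadjusted p under 0.05. Of 26 further genes of fatty acid synthesis and handling 25 were measured, and 3 were higher and 0 lower at that threshold (12%, against 11.8% of all genes), a share near that of all genes. These were Slc25a1, the citrate carrier that feeds Acly (0.46), the elongase Elovl1 (0.58) and Acsl4, which activates polyunsaturated fatty acids (0.34), named after their values were seen. None passed the adjusted threshold in limma.

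Among 20 measured genes of sterol uptake, storage and efflux, 3 were higher and 1 was lower at an unadjusted p under 0.05 (20.0%, against 11.8% of all genes), and 0 passed the adjusted threshold in limma. Abca1, the transporter that loads cholesterol onto apolipoproteins, read 10.80 and 10.70 in the knockout, against 10.10, 9.57 and 10.17 in the control (difference 0.80, SE 0.21; limma adjusted p = 0.288). Osbpl3, of the oxysterol-binding protein family, read 7.89 and 7.33 in the knockout, against 9.00, 8.86 and 9.02 in the control (difference -1.35, SE 0.19; limma adjusted p = 0.120). The other 2 were the efflux transporter gene Abcg1 (0.35) and Npc2, a lysosomal cholesterol carrier (0.36), named after their values were seen.

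Other cells make and handle lipids too, and markers of some were higher in the knockout. Of 17 measured microglia and macrophage markers, 17 had higher means in the knockout and 3 passed the adjusted threshold in limma. Their summed signal was 14.28 and 13.92 in the knockout arrays, against 12.05 to 12.38 in the controls. Of the markers of the oligodendrocyte lineage, cells known for high cholesterol synthesis, 10 of 14 had higher means and the summed signal was 13.63 and 13.76 in the knockout, against 13.25 to 13.38 in the controls. Radial glia and astrocyte markers had 10 of 12 means higher, with a summed signal of 15.17 and 15.22 in the knockout, against 15.02 to 15.13 in the controls. At an unadjusted p under 0.05, which 11.8% of all genes met, there were 16 microglia and macrophage genes higher and 0 lower. At that threshold 4 oligodendrocyte genes were higher and 2 lower, and of the radial glia and astrocyte genes 0 were either.

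No marker is at 0 after RMA, but 1 microglia and 4 oligodendrocyte markers stayed below the median of all values in every array. The summed signals of the 2 groups overlapped for endothelial and pericyte markers (13.68 and 13.87 in the knockout, 13.49 to 13.75 in the controls), relay neuron markers (15.64 and 15.85 against 15.76 to 15.82) and red blood cell markers (11.01 and 11.52 against 11.38 to 11.88). Meningeal and fibroblast markers had 10.98 and 11.01 in the knockout and 11.10 to 12.43 in the controls. At an unadjusted limma p under 0.05 (11.8% of all genes), 3 of 12 endothelial and pericyte genes were higher and 0 lower. Of 12 relay neuron genes 1 was higher and 2 were lower, among them Cck (-2.12, limma adjusted p = 0.0236). Of 17 GABAergic and prethalamic genes 4 were higher and 0 lower. Of 12 meningeal and fibroblast genes 0 were higher and 2 lower, and of 4 red blood cell genes 0 and 1. The part of these cells in the lipid gene values was not tested. In whole tissue, a change in the number of cells of a type and a change in RNA per cell cannot be told apart.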

How the data were processed

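Total RNA (20 ng) was amplified, biotin-labelled and hybridised to Affymetrix arrays, per the labels' protocols. The authors deposited log2 expression values, which the submitters' processing notes ascribe to RMA. The RMA version is not given in the sources used here. RMA pulls array distributions together (array medians 6.39 to 6.42) and compresses low signals. No 2 arrays were copies (correlations 0.985 to 0.995). Of 45101 probe sets, 64 array controls were left out. The platform annotation gave 34945 probe sets 1 gene, 932 several and 9160 none here. Genes with no probe set of their own here were not analysed.

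Groups came from the labels' titles. Knockout was compared with control in limma 3.58.1 under R 4.3.3 (lmFit, eBayes), with two-sided tests and genotype as the only term, Benjamini-Hochberg adjusted across all 45037 probe sets (prior degrees of freedom 2.52, residual 3). The fit was tested on simulated data. P-values measure the spread between pools, and the number of arrays limits the precision.

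The members and lists were chosen with earlier results of these data known. Values by array are given for genes at an unadjusted p under 0.05 or with groups apart by at least 0.3, for the brightest and dimmest gene of each arm, and for the Srebf, Insig and Scd genes. Values by array of Fdps were chosen after they were seen, as was the brightest Stard4 probe set.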

Additional observations from a re-analysis of the deposited data

Results flagged for a closer look

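The array's own control probe sets, which no comparison used, gave a larger 3′ minus 5′ difference in knockout replicate 1 than in any control. It was 2.34 for Gapdh, against at most 1.33 in the controls, and 1.91 for Actb, against at most 1.45. Knockout replicate 2 gave 0.96 and 0.97. Without knockout replicate 1, the median log2 difference of the 29 lipid genes was 0.10 in place of 0.13. That fit leaves 1 knockout array, so no count of genes is given for it. The median was 0.08 without control replicate 1 and 0.08 without control replicate 3, arrays that were not flagged. The part of RNA quality in these values was not tested.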

How the results depend on the processing

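Under 14 alternatives, 0 of the 29 genes passed the adjusted threshold in limma (lowest adjusted p 0.171). Their median log2 difference, 0.13, was 0.08 to 0.17. The 6 genes at an unadjusted p under 0.05 kept their direction in 84 of 84 values, but not every value could reverse. The intensity trend, the robust prior and leaving out dim probe sets do not change the difference itself. The 6 were also picked by p from these same arrays. The count of 6 genes at that threshold was 0 without control replicate 1 and 0 without control replicate 3. There 8.74% and 8.23% of all probe sets met the threshold. It was 6 without control replicate 2 (8.2% of all probe sets), 1 with array weights (9.54%) and 0 with the replicate block (11%). Leaving out a knockout array leaves 1 in that group, so the count is not given for those fits. With the probe sets of each gene averaged the count was 7 (4 higher, 3 lower), with Fdft1 (0.21, limma unadjusted p = 0.107) and Lss (0.04) lost. There 11.2% of all averaged genes and remaining probe sets met the threshold. The replicate number of the labels is not known to pair pools. Deviations from the group means correlated at 0.15 for the arrays numbered 1 and at 0.21 for those numbered 2. The other pairs of a knockout and a control array gave -0.21 to 0.06. With 2 knockout arrays their deviations mirror each other, so these values are not separate checks. The block leaves control replicate 3 without a partner. Over all probe sets, 33 passed the adjusted threshold, against 114 with dim probe sets left out (fewer tested), 100 with an intensity trend, 19 with array weights, 0 with the replicate block and 0 with any 1 array left out.

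Of 406 values of single genes 18 changed sign, for 8 genes with differences of at most 0.32. The settings that leave the difference unchanged are counted among the 406. With the replicate block Fdps gave -0.039, Sc5d -0.033 and Acaca 0.016, and with array weights Sc5d gave -0.0046. With the probe sets of each gene averaged, Scd2 gave -0.23 and Elovl6 -0.32 (limma unadjusted p = 0.0195), and Acaca gave -0.58 in place of -0.02. With 1 array left out, Fdps ranged from -0.54 to 0.79, Sc5d from -0.15 to 0.16, Srebf1 from -0.66 to 0.024, Srebf2 from -0.40 to 0.13, Acaca from -0.074 to 0.016 and Elovl5 from -0.013 to 0.070. The causes were not tested. The alternative that passed over probe sets named _x_at or _s_at was chosen after seeing the data, and gave 6 genes, of which 5 were the same. In that fit 11.1% of all probe sets met the threshold. Fdft1 was lost (0.16, limma unadjusted p = 0.414) and Hsd17b7 gained (0.89).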
